A study of Arabidopsis thaliana with 12 samples.

Results

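Selective autophagy receptors are the proteins that pick what an autophagosome takes up, and 6 genes for them were followed across the mutants. They are NBR1 (AT4G24690), ATI1 (AT2G45980), ATI2 (AT4G00355), DSK2A (AT2G17190), DSK2B (AT2G17200) and TSPO (AT2G47770), taken by their gene identifiers from a table of 26093 genes. Whole Arabidopsis thaliana seedlings of the Col-0 ecotype, grown on plant nutrient medium in continuous light, were sequenced as poly-A selected libraries. The genotypes were atg2-4, a mutant of the autophagy gene ATG2, lon2-8, a mutant of the peroxisomal protease gene LON2, the double mutant lon2-8 atg2-4, and wild-type Col-0 as the control, with 3 libraries of each that the series design calls biological replicates. Each mutation is represented by 1 allele. Seedling age is given as 6 days in one place and as 8 days in another, and for the single mutants the sample titles and genotype tags name opposite mutants, so libraries were grouped by titles and by the matching names of the data columns.

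Autophagosomes are double membranes that form around cargo and deliver it to the vacuole. The small protein ATG8 coats the growing membrane, and a receptor binds ATG8 through a short ATG8-interacting motif while binding its cargo with another part, so that it is degraded together with what it carries. ATG2 moves lipid into the growing membrane, and LON2 is a protease of the peroxisome matrix, an organelle that autophagy can also remove. NBR1 carries ubiquitin-tagged and aggregated proteins, ATI1 and ATI2 are plant-specific membrane proteins that carry material from the endoplasmic reticulum and plastids, DSK2A and DSK2B are ubiquitin receptors that carry the brassinosteroid transcription factor BES1, and TSPO is a membrane protein induced by abscisic acid that carries the aquaporin PIP2;7.

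The genes lie on chromosomes 2 and 4 of the TAIR10.1 assembly. NBR1 lies on the plus strand at chr4:12741032-12744670, and the last 101 bases of its span overlap AT4G24700 on the opposite strand. ATI2 lies on the same strand at chr4:154635-156376, and TSPO on the plus strand at chr2:19568464-19569507. ATI1 lies on the minus strand at chr2:18917272-18919198. DSK2A (chr2:7477845-7481690) and DSK2B (chr2:7481881-7485240) are neighbours on the minus strand with 190 bases between them, and no other annotated gene overlaps ATI1, ATI2, TSPO or the DSK2 pair.

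The 250 bases before the start of NBR1 and of ATI2 are shown because these genes had the largest changes among the 6 and their windows hold no part of another annotated gene. The NBR1 window is chr4:12740782-12741031 and the ATI2 window is chr4:154385-154634, both on the plus strand, from RefSeq TAIR10.1. Capitals mark a match to the W-box core TTGAC, the letters that WRKY transcription factors bind, which in NBR1 is read from the opposite strand and begins 120 bases before the start.
NBR1: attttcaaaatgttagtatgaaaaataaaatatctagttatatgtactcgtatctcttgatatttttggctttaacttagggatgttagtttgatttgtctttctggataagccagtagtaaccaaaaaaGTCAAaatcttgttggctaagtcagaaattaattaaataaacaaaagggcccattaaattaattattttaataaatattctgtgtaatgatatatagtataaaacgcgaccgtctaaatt
ATI2: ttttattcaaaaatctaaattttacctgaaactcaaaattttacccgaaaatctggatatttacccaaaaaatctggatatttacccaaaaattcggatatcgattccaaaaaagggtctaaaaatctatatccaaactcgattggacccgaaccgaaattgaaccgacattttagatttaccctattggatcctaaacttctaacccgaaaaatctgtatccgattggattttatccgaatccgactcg
The 5 motifs searched, counted on both strands in the window of 250 bases before to 50 after each start, gave few matches. The W-box core was in NBR1 and DSK2B and in 50.6% of the 26092 promoters of the table. The G-box CACGTG and the ABRE core ACGTG that lies within it, bound by light- and abscisic acid-related factors, were both in ATI1 and TSPO, and in 7.86% and 26.9% of all promoters. The TGA motif TGACG was in ATI1 and DSK2B and in 23.3% of promoters, and the heat shock element GAANNTTC was in none of the 6 and in 11.6%. ATI2 and DSK2A held none of the 5 motifs, and a match here is a description of the sequence and not a binding site.

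Depth was 14500000 to 18700000 fragments per library, rounded, and 19705 to 19923 genes reached 1 FPKM (fragments per kilobase of gene, scaled to library size). LON2 averaged 22.3 ± 0.84 FPKM in atg2-4, 11.6 ± 0.47 FPKM in lon2-8 and 4.78 ± 0.50 FPKM in the double mutant, against 25.9 ± 1.62 FPKM in Col-0. ATG2 averaged 6.31 ± 0.34 FPKM in atg2-4, 7.58 ± 0.51 FPKM in lon2-8 and 6.59 ± 0.43 FPKM in the double mutant, against 7.71 ± 0.13 FPKM in Col-0 (SD, n = 3 each). LON2 was thus lowest in the libraries grouped as carrying lon2-8, which matches the grouping by titles and column names. These whole seedlings held both shoot and root, with all 8 shoot and all 8 root markers reaching 1 FPKM in at least 1 library. The summed root markers stood at 826 to 883 FPKM in atg2-4, 1939 to 2081 FPKM in lon2-8 and 875 to 928 FPKM in the double mutant, against 1344 to 1397 FPKM in Col-0. That sum is mostly PYK10, a root beta-glucosidase gene at 652 ± 11.6 FPKM in atg2-4, 1773 ± 65.6 FPKM in lon2-8 and 724 ± 9.98 FPKM in the double mutant, against 1143 ± 14.1 FPKM in Col-0 (SD, n = 3 each). The other 7 root markers summed to 182 to 217 FPKM in atg2-4, 214 to 234 FPKM in lon2-8 and 156 to 193 FPKM in the double mutant, against 215 to 240 FPKM in Col-0. Of the 8 root markers 1 was called higher and 3 lower in atg2-4 against Col-0, where 21.3% and 27.2% of all genes tested were. In lon2-8 against Col-0 2 were called higher and 1 lower, where 9.06% and 14.1% of all genes were. Their median log2 fold changes were -0.08 and 0.02, against -0.05 and -0.04 over all genes tested. The double mutant had 0 called higher and 4 lower against Col-0, where 22.0% of all genes tested were called higher. The median was -0.23 (all genes -0.05). Against lon2-8 the double mutant had 0 called higher and 5 lower, where 25.3% of all genes tested were called higher. The median was -0.47 (all genes -0.0054). The share of all genes called lower is not given for either comparison, so the counts of 4 and 5 lower are not set against one. The summed shoot markers stood at 11386 to 12261 FPKM in atg2-4, 12957 to 13770 FPKM in lon2-8 and 11696 to 12234 FPKM in the double mutant, against 12607 to 12828 FPKM in Col-0. The part of tissue make-up in the results below was not tested, and in bulk RNA a change in the number of cells of a type and a change in RNA per cell cannot be told apart.

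NBR1 was the most abundant of the 6 transcripts in every genotype, and its mean was 2.21 times as high in atg2-4 as in Col-0. It stood at 120, 126 and 123 FPKM in the atg2-4 libraries, against 55.8, 55.2 and 56.2 FPKM in the Col-0 libraries. All atg2-4 libraries lay above all Col-0 libraries, and the lowest of them was 2.14 times the highest Col-0 library. The log2 fold change on the log2(FPKM + 1) scale was 1.13 ± 0.030 (SE, limma, adjusted p = 5.73e-12), which ranked 548 among 20662 genes tested. The overlapping gene AT4G24700 was at 5.85 ± 0.37 FPKM in atg2-4 and 5.90 ± 0.17 FPKM in Col-0 (SD, n = 3 each) and did not pass the test (adjusted p = 0.925, limma).

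ATI1 and ATI2, the plant-specific receptors of the endoplasmic reticulum and plastids, both rose in atg2-4, ATI2 with the larger fold change. ATI2 stood at 43.9, 44.5 and 43.7 FPKM in the atg2-4 libraries, against 31.4, 32.9 and 29.7 FPKM in the Col-0 libraries. ATI1 stood at 23.9, 24.8 and 23.9 FPKM in the atg2-4 libraries, against 19.8, 21.0 and 21.5 FPKM in the Col-0 libraries. For both genes all atg2-4 libraries lay above all Col-0 libraries. The share of all genes tested whose libraries separate in this way was not counted for any comparison. With 21.3% of all genes called higher and 27.2% lower in atg2-4, a lack of overlap does not by itself set a gene apart. The log2 fold changes were 0.48 ± 0.038 for ATI2 (SE, limma, adjusted p = 3.58e-07) and 0.21 ± 0.044 for ATI1 (SE, limma, adjusted p = 0.00139).

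The ubiquitin receptors DSK2A and DSK2B also rose in atg2-4. DSK2B stood at 29.0, 28.7 and 30.4 FPKM in the atg2-4 libraries, against 22.1, 22.0 and 22.8 FPKM in the Col-0 libraries, a log2 fold change of 0.38 ± 0.052 (SE, limma, adjusted p = 5.18e-05). DSK2A stood at 20.5, 22.3 and 22.6 FPKM in the atg2-4 libraries, against 18.6, 17.1 and 18.7 FPKM in the Col-0 libraries, a log2 fold change of 0.25 ± 0.049 (SE, limma, adjusted p = 0.000914). The libraries of the 2 genotypes did not overlap for either gene, although the lowest atg2-4 library of DSK2A was little above its highest Col-0 library.

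TSPO had very few fragments and is the exception. It was counted with 8, 12 and 13 fragments in the atg2-4 libraries, against 4, 22 and 11 fragments in the Col-0 libraries, which is 0.458, 0.794 and 0.686 FPKM against 0.228, 1.14 and 0.665 FPKM. The Col-0 libraries spread on both sides of the atg2-4 libraries. The exact Poisson 95% interval of Col-0 library 1, 0.0622 to 0.585 FPKM, does not reach that of Col-0 library 2, 0.716 to 1.73 FPKM, so these libraries differ by more than counting error. The log2 fold change was 0.0030 ± 0.19 with a 95% interval of -0.42 to 0.42 and did not pass the test (SE, limma, adjusted p = 0.991). At a level this low the pseudocount of 1 understates a change, and with a pseudocount of 0.1 the log2 fold change was 0.11 (adjusted p = 0.854, limma). It passed the filter of at least 1 FPKM in 3 libraries through 4 libraries, 1 of lon2-8, 2 of the double mutant and 1 of Col-0, and the other 5 genes passed in all 12.

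In all, 5 of the 6 receptor genes were called higher in atg2-4, where 21.3% of all genes tested were called higher and 27.2% lower. The median log2 fold change was 0.32 over the 6 genes and -0.05 over all genes tested. The plot of levels by library shows each value behind these counts.

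**Figure D1:**
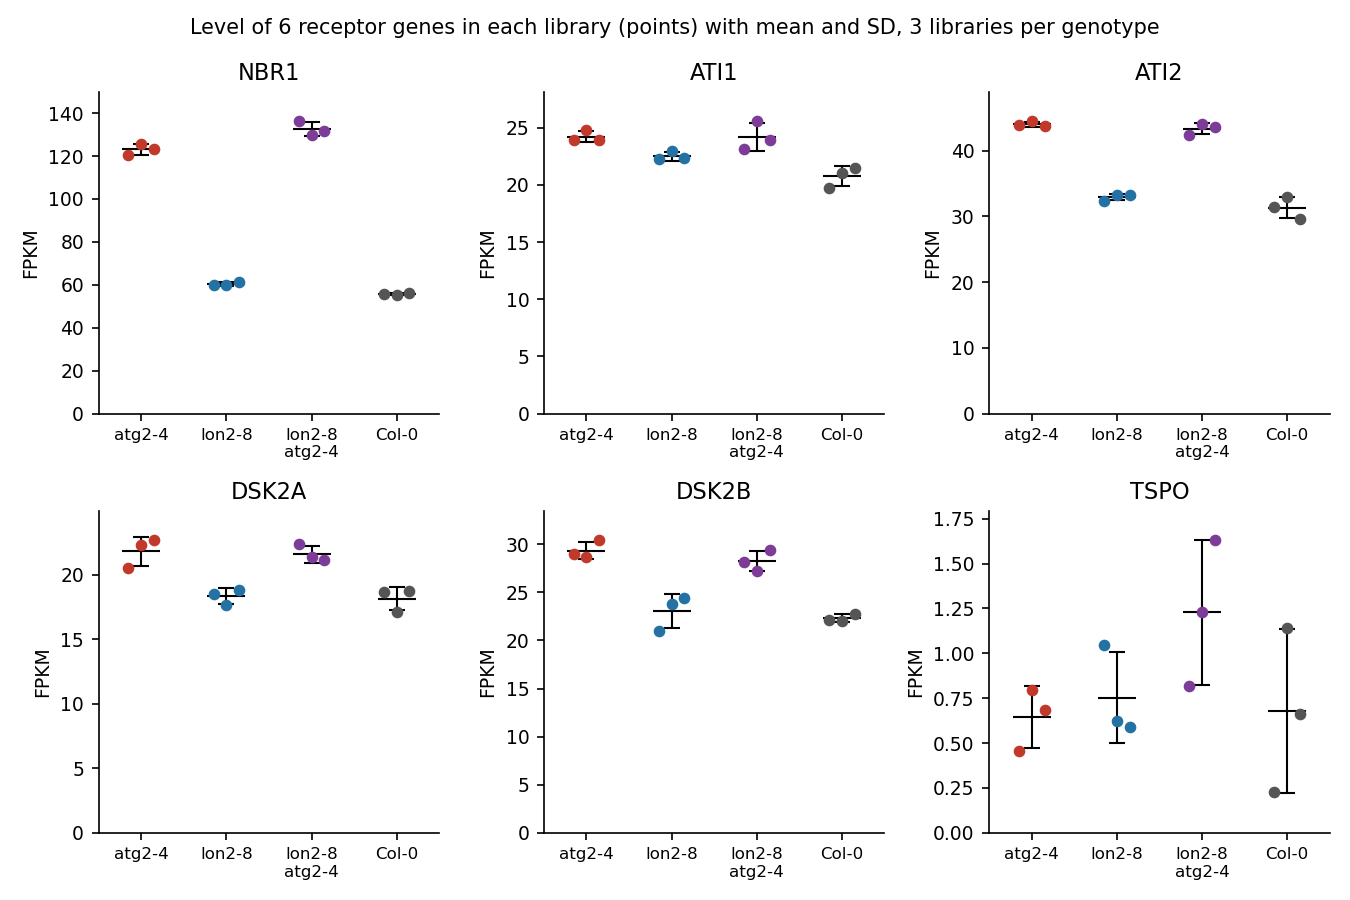
FPKM of each receptor gene in every library (points, 3 per genotype) with the mean and SD (black), the vertical axes starting at 0 and differing between panels. NBR1 lies at 120 to 136 FPKM in the genotypes that carry atg2-4 and at 55.2 to 61.3 FPKM in lon2-8 and Col-0, while the TSPO libraries of all genotypes spread between 0.228 and 1.63 FPKM.

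The deposited FPKM divide by the whole span of a gene, introns included, so levels of different genes were compared after rescaling to exon length. On that scale NBR1 averaged 163 ± 3.48 FPKM in atg2-4, 80.0 ± 1.18 FPKM in lon2-8 and 176 ± 4.43 FPKM in the double mutant, against 74.0 ± 0.72 FPKM in Col-0 (SD, n = 3 each). In Col-0 the order of levels was NBR1, DSK2B at 36.4, ATI2 at 31.3, DSK2A at 30.8, ATI1 at 27.9 and TSPO at 0.678 FPKM per exon length. On this scale the same order held in the other genotypes, and neighbours in it did not overlap between libraries except ATI2 and DSK2A in Col-0, and DSK2A and ATI1 in lon2-8. The place of ATI2 depends on the length used. Its annotated transcripts together cover its whole span of 1742 bases, introns included, while its transcript with the longest coding sequence has 1422 bases, and for the other 5 genes the corresponding transcript is as long as their exons. Per length of that transcript ATI2 averaged 53.9 ± 0.50 FPKM in atg2-4, 40.3 ± 0.62 FPKM in lon2-8 and 53.1 ± 1.06 FPKM in the double mutant, against 38.4 ± 1.99 FPKM in Col-0 (SD, n = 3 each). It then came second, above DSK2B, in every genotype, although the libraries of these genes overlapped in lon2-8 and in Col-0.

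Per exon length NBR1 made up 50.2% ± 0.33 of the summed level of the 6 genes in atg2-4, against 36.8% ± 0.27 in Col-0, and 52.4% ± 0.83 in the double mutant, against 37.6% ± 0.41 in lon2-8 (SD, n = 3 each). With the shorter ATI2 length these shares were 48.7% in atg2-4 against 35.5% in Col-0, and 50.9% in the double mutant against 36.4% in lon2-8. The summed level per exon length was 325 ± 6.28 FPKM in atg2-4, 213 ± 4.32 FPKM in lon2-8 and 336 ± 3.26 FPKM in the double mutant, against 201 ± 1.46 FPKM in Col-0. The share of ATI1 was 9.99% ± 0.17 in atg2-4 and 13.9% ± 0.52 in Col-0, although its own level was higher in atg2-4. Per exon length ATI1 averaged 32.5 FPKM in atg2-4 and 27.9 FPKM in Col-0. TSPO held under 1% in every genotype, at most 0.366% ± 0.12 in the double mutant.

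**Figure D2:**
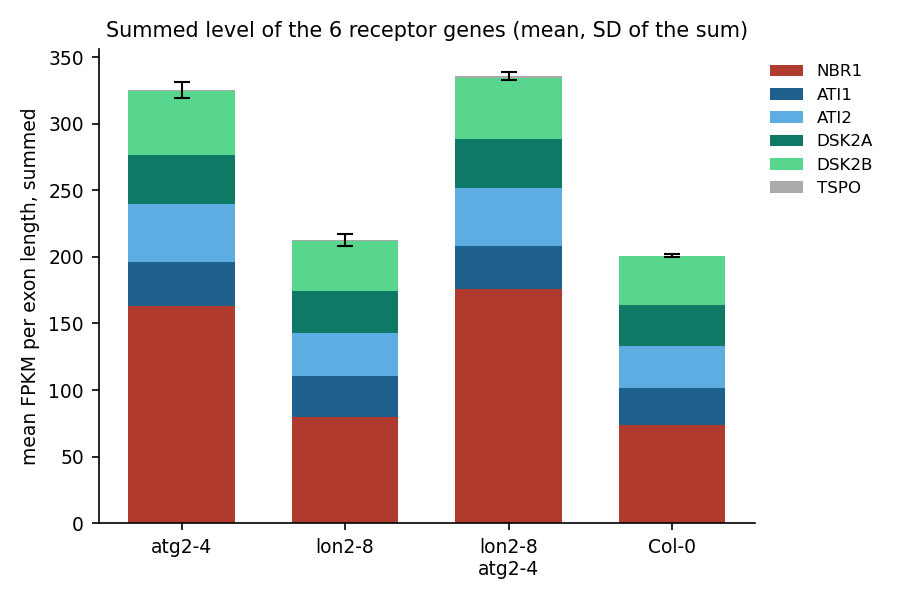
Mean FPKM per exon length of the 6 receptor genes, stacked, for each genotype (3 libraries), with the SD of the sum. The stacks reach 325 in atg2-4 and 336 in the double mutant, against 213 in lon2-8 and 201 in Col-0, and the NBR1 segment is the one that differs most.

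The double mutant against lon2-8 gives the atg2-4 change once more, in libraries that the comparison of atg2-4 with Col-0 did not use. NBR1 stood at 136, 130 and 132 FPKM in the double mutant, against 59.8, 59.8 and 61.3 FPKM in lon2-8, a log2 fold change of 1.12 ± 0.030 (SE, limma, adjusted p = 7.79e-12). ATI2 stood at 42.4, 44.1 and 43.6 FPKM in the double mutant, against 32.4, 33.3 and 33.2 FPKM in lon2-8, a log2 fold change of 0.39 ± 0.038 (SE, limma, adjusted p = 2.45e-06). The libraries of the double mutant lay above those of lon2-8 for both genes.

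DSK2B stood at 28.2, 27.3 and 29.4 FPKM in the double mutant, against 21.0, 23.8 and 24.4 FPKM in lon2-8, and its log2 fold change was 0.29 ± 0.052 (SE, limma, adjusted p = 0.000495). DSK2A stood at 22.3, 21.3 and 21.1 FPKM in the double mutant, against 18.5, 17.7 and 18.8 FPKM in lon2-8, and its log2 fold change was 0.23 ± 0.049 (SE, limma, adjusted p = 0.00200). Neither gene overlapped between these genotypes. ATI1 stood at 23.2, 25.6 and 23.9 FPKM in the double mutant, against 22.3, 23.0 and 22.3 FPKM in lon2-8. Its libraries did not overlap, yet its log2 fold change of 0.10 ± 0.044 did not pass the test (SE, limma, adjusted p = 0.0766). It passed without double mutant library 1 (adjusted p = 0.0420).

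Of the 6 genes, 4 were called higher in the double mutant than in lon2-8, where 25.3% of all genes tested were called higher. In the direct comparison of atg2-4 with lon2-8 the 4 called higher were again NBR1 (log2 fold change 1.02 ± 0.030), ATI2 (0.41 ± 0.038), DSK2B (0.34 ± 0.052) and DSK2A (0.24 ± 0.049, SE), against 25.1% of all genes tested, with the lon2-8 libraries shared by both comparisons. ATI1 had a log2 fold change of 0.10 ± 0.044 there (adjusted p = 0.0776, limma). Against Col-0 the double mutant had 5 of the 6 called higher, against 22.0% of all genes tested, with log2 fold changes of 1.24 for NBR1, 0.46 for ATI2, 0.33 for DSK2B, 0.24 for DSK2A and 0.21 for ATI1.

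**Figure D3:**
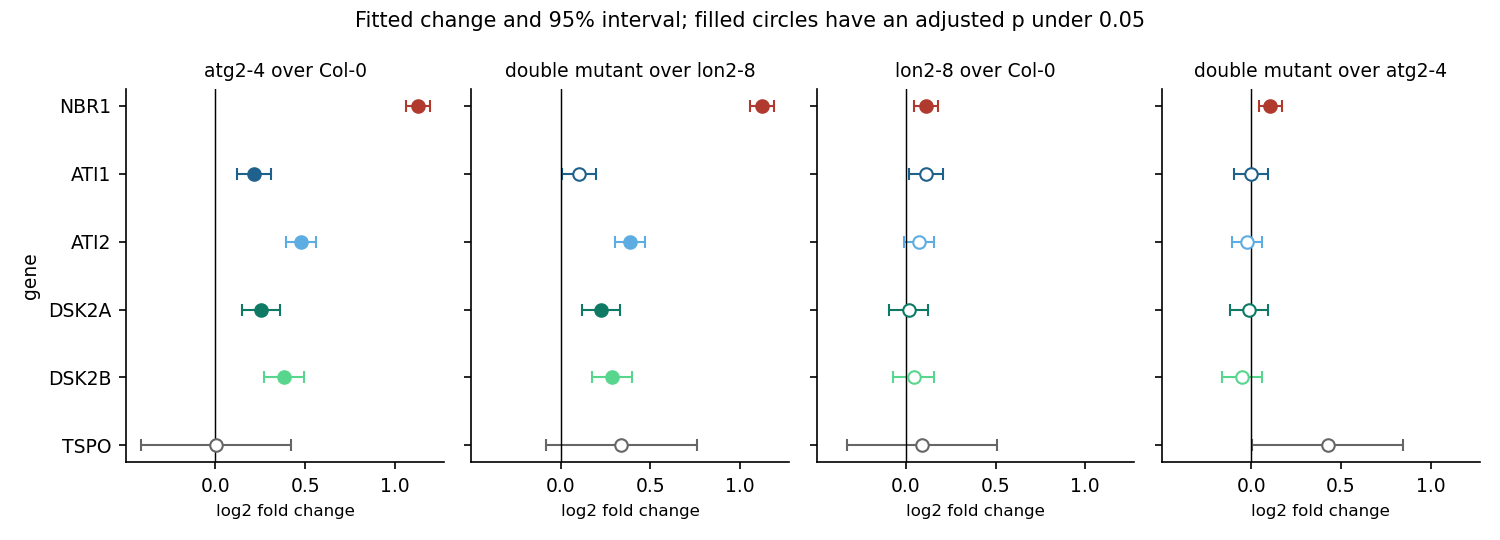
Fitted log2 fold change of each receptor gene with its 95% interval in 4 comparisons, filled where the adjusted p (limma) was under 0.05. NBR1 lies at 1.13 and 1.12 in the 2 comparisons that add atg2-4 and at 0.11 in both that add lon2-8, and TSPO has the widest interval in every panel.

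The atg2-4 change did not differ detectably between the lon2-8 and the Col-0 background for any of the 6 genes. For NBR1 the interaction, which is the double mutant minus atg2-4 minus lon2-8 plus Col-0, was -0.0053 ± 0.042 with a 95% interval of -0.10 to 0.09 (SE, limma, adjusted p = 0.952). The smallest adjusted p was that of ATI1, at 0.267 for an interaction of -0.11 ± 0.062 with an interval of -0.25 to 0.02. ATI2 had -0.09 ± 0.054, DSK2B -0.10 ± 0.073, DSK2A -0.03 ± 0.070 and TSPO 0.34 ± 0.27 (SE). With limma 0 of the 6 were called and 0 had an unadjusted p under 0.05, against 13.2% of all genes tested that were called.

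**Figure D4:**
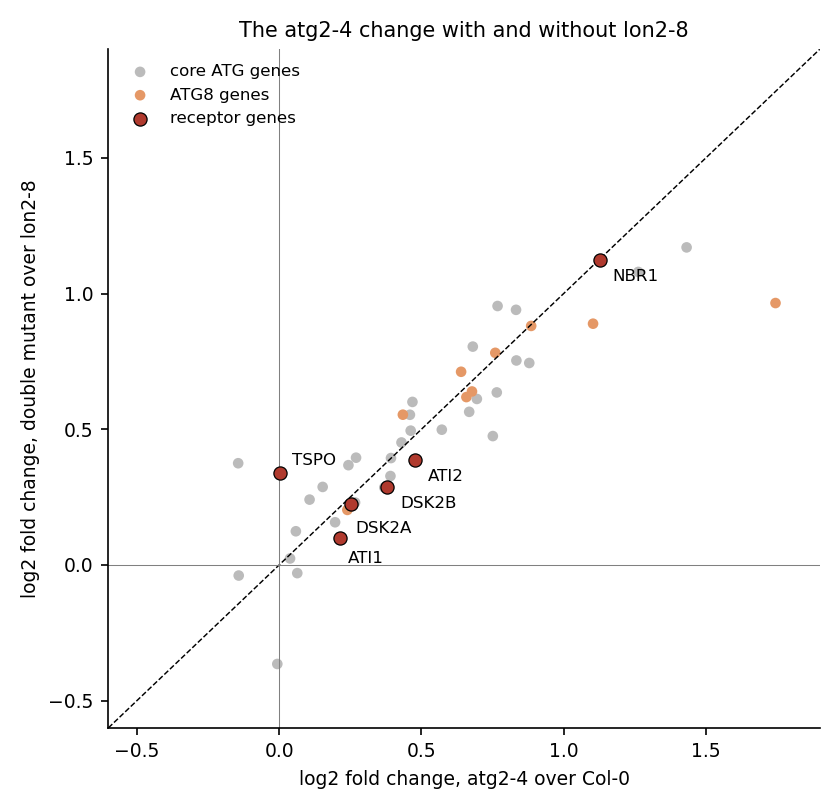
Log2 fold change of atg2-4 over Col-0 (horizontal) and of the double mutant over lon2-8 (vertical), which share no library, for the receptor genes, the ATG8 genes and the other core autophagy genes, with the line of equal change dashed. NBR1 lies on the line at 1.13 and 1.12, and ATG8H lies furthest below it at 1.74 and 0.96.

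Of these transcripts NBR1 was the 1 that passed the test in lon2-8, by a small margin. NBR1 stood at 59.8, 59.8 and 61.3 FPKM in the lon2-8 libraries, against 55.8, 55.2 and 56.2 FPKM in the Col-0 libraries, without overlap. Its log2 fold change of 0.11 ± 0.030 passed the test (SE, limma, adjusted p = 0.0173), and it was lost when lon2-8 library 3 (adjusted p = 0.0582) or Col-0 library 2 (adjusted p = 0.0641) was left out, and in a fit without a trend (adjusted p = 0.0574). The count was thus 1 of 6 called higher in lon2-8, where 9.06% of all genes tested were called higher and 14.1% lower. The authors' deposited table lists NBR1 with a log2 fold change of 0.114 and a false discovery rate of 0.00924 in lon2-8 over Col-0.

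ATI1 averaged 22.5 ± 0.38 FPKM in lon2-8 and 20.8 ± 0.88 FPKM in Col-0 (SD, n = 3 each), with a log2 fold change of 0.11 ± 0.044 (SE, limma, adjusted p = 0.0836). As for NBR1, its lon2-8 libraries did not overlap with the Col-0 libraries. With each library centred on its median the log2 fold change of ATI1 was 0.16 and passed (limma, adjusted p = 0.0200). The authors' deposited table lists ATI1 with a log2 fold change of 0.117 and a false discovery rate of 0.0271 there. The log2 fold changes of ATI2 (0.07, adjusted p = 0.204), DSK2B (0.04, adjusted p = 0.598), DSK2A (0.02, adjusted p = 0.856) and TSPO (0.09, adjusted p = 0.776) did not pass the test in limma. Their 95% intervals reached at most 0.15 for ATI2, 0.16 for DSK2B and 0.12 for DSK2A, but 0.51 for TSPO.

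Adding lon2-8 to atg2-4 gave a similar picture. NBR1 stood at 136, 130 and 132 FPKM in the double mutant, against 120, 126 and 123 FPKM in atg2-4, and the log2 fold change of 0.11 ± 0.030 passed narrowly (SE, limma, adjusted p = 0.0454). It was the 1 receptor gene of 6 called, against 8.88% of all genes tested in either direction, and the call was lost without any 1 library of atg2-4, the double mutant or Col-0 and without lon2-8 library 1 or 2 (adjusted p = 0.0531 to 0.147, and 0.123 in a fit without a trend). The authors' deposited table gives NBR1 a false discovery rate of 0.0941 in this comparison. ATI1, ATI2, DSK2A and DSK2B had log2 fold changes between -0.05 and -0.0008 and overlapped between both genotypes.

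TSPO was highest in the double mutant, with 16, 23 and 28 fragments, against 17, 12 and 11 in lon2-8, 8, 12 and 13 in atg2-4 and 4, 22 and 11 in Col-0. Summed fragments give 1.21 FPKM in the double mutant with an exact Poisson interval of 0.938 to 1.54, against 0.694 FPKM with 0.489 to 0.957 in Col-0, intervals at 95% that cover counting error only. The double mutant overlapped with Col-0 and lon2-8 and lay just above atg2-4. Its log2 fold change over Col-0 was 0.43 ± 0.19 and did not pass the test (SE, limma, adjusted p = 0.0812), nor did those over atg2-4 (0.43, adjusted p = 0.206) and lon2-8 (0.34, adjusted p = 0.168). With a pseudocount of 0.1 the log2 fold changes were larger, 0.92 over Col-0 (adjusted p = 0.0909, limma), 0.81 over atg2-4 (adjusted p = 0.285) and 0.63 over lon2-8 (adjusted p = 0.248), and did not pass either. The mean FPKM in the double mutant was 1.81 times that in Col-0. The authors' deposited table lists TSPO with a log2 fold change of 0.855 and a false discovery rate of 0.00504 over Col-0, and of 0.926 and 0.0338 over atg2-4. Without Col-0 library 2, the highest of Col-0 with 22 fragments, the adjusted p over Col-0 was 0.0165 in limma. TSPO then passed the filter through lon2-8 and double mutant libraries alone. Without double mutant library 1, the lowest of the double mutant, the adjusted p over Col-0 was 0.0408 in limma. Leaving out any other single library did not make TSPO pass over Col-0.

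DSK2A and DSK2B are near copies, and their coding sequences were identical at 91.0% of 1605 aligned bases. The longest stretch shared by both transcripts has 116 bases, lies in the coding sequence, and is shown because a read that fell wholly within it would match both genes.
DSK2A and DSK2B, minus strand of chromosome 2: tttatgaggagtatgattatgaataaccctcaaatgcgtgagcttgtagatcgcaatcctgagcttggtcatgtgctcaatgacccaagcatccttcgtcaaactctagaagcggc
No stretch of 150 bases, the length of one read of a pair, was shared, and the sources used here do not say how the authors counted reads with several matches. The ratio of DSK2B to DSK2A per exon length was 1.30 ± 0.060 in atg2-4 libraries, 1.21 ± 0.11 in lon2-8 libraries and 1.26 ± 0.069 in double mutant libraries, against 1.18 ± 0.049 in Col-0 (SD, n = 3 each). These ratios ranged from 1.24 to 1.36 over the atg2-4 libraries and from 1.14 to 1.24 over the Col-0 libraries. ATI1 and ATI2 are more distant, identical at 65.4% of 752 aligned bases with no shared stretch over 17 bases. The ratio of ATI2 to ATI1 per exon length was 1.35 ± 0.015 in atg2-4 libraries, 1.09 ± 0.016 in lon2-8 libraries and 1.33 ± 0.044 in double mutant libraries, against 1.13 ± 0.084 in Col-0. The 3 atg2-4 libraries, from 1.34 to 1.36, lay above the 3 Col-0 libraries, from 1.03 to 1.18. Per length of the shorter ATI2 transcript the ratio was 1.66 ± 0.018 in atg2-4 libraries, 1.33 ± 0.020 in lon2-8 libraries and 1.63 ± 0.054 in double mutant libraries, against 1.38 ± 0.10 in Col-0 (SD, n = 3 each).

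Among genes of other proteins that select or sort cargo, those called in atg2-4 were mostly higher. Of 19 other cargo adaptors, 8 were called higher and 1 lower in atg2-4, with a median log2 fold change of 0.16, where 21.3% of all genes tested were called higher and 27.2% lower. In the double mutant against lon2-8 10 were called higher and 0 lower, where 25.3% of all genes were called higher. EXO70B2, an exocyst subunit that binds ATG8, averaged 22.5 ± 1.20 FPKM in atg2-4 and 8.65 ± 0.45 FPKM in Col-0, a log2 fold change of 1.28 (adjusted p = 8.16e-10, limma). CFS1, which links autophagosomes to endosomal sorting, averaged 32.4 ± 0.72 FPKM in atg2-4 and 15.9 ± 0.96 FPKM in Col-0, a log2 fold change of 0.98. FREE1, an endosomal sorting subunit, and EXO70D3, a receptor for cytokinin response regulators, rose by less, with log2 fold changes of 0.25 and 0.33. In lon2-8, where 9.06% of all genes tested were called higher and 14.1% lower, 0 of the 19 were called higher and 2 lower, EXO70B1 (-0.18, adjusted p = 0.00622, limma) and DDRGK1 (-0.20, adjusted p = 0.0267, limma). DDRGK1 is a subunit of the enzyme complex that attaches the modifier UFM1 at the endoplasmic reticulum.

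The ATG8 genes, whose proteins the receptors bind, were all 9 called higher in atg2-4, against 21.3% of all genes tested, with a median log2 fold change of 0.68. ATG8H averaged 48.6 ± 2.62 FPKM in atg2-4 and 13.8 ± 1.14 FPKM in Col-0, a log2 fold change of 1.74 (adjusted p = 9.71e-11, limma). ATG8A averaged 64.0 ± 3.35 FPKM in atg2-4 and 29.3 ± 2.02 FPKM in Col-0, and ATG8D (log2 fold change 0.89) and ATG8F (0.64) rose too. ATG8H was the 1 of 9 called in lon2-8, against 9.06% of all genes called higher and 14.1% lower, at 20.4 ± 1.03 FPKM against 13.8 ± 1.14 FPKM in Col-0 (log2 fold change 0.53, adjusted p = 4.08e-05, limma). ATG8B was at 2.88 ± 0.15 FPKM in lon2-8 and 3.64 ± 0.40 FPKM in Col-0 and did not pass (adjusted p = 0.0795, limma).

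Among 31 tested core autophagy genes, 22 were called higher and 1 lower in atg2-4, against 21.3% and 27.2% of all genes tested, with a median log2 fold change of 0.43. The kinase gene ATG1A (1.26), its partners ATG101 (1.43) and ATG11 (0.83), and ATG3 (0.76), the enzyme that attaches ATG8 to lipid, had the smallest adjusted p. In lon2-8 0 were called higher and 4 lower, against 9.06% and 14.1% of all genes. They include ATG4A, the protease that processes ATG8, at 16.6 ± 0.35 FPKM against 24.9 ± 0.34 FPKM in Col-0 (log2 fold change -0.56, adjusted p = 1.35e-06, limma), and ATG18F (-0.20, adjusted p = 0.00873, limma). In the double mutant against lon2-8, 8 of the 9 ATG8 genes and 25 of the 31 core genes were called higher, against 25.3% of all genes, with medians of 0.71 and 0.45.

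**Figure D5:**
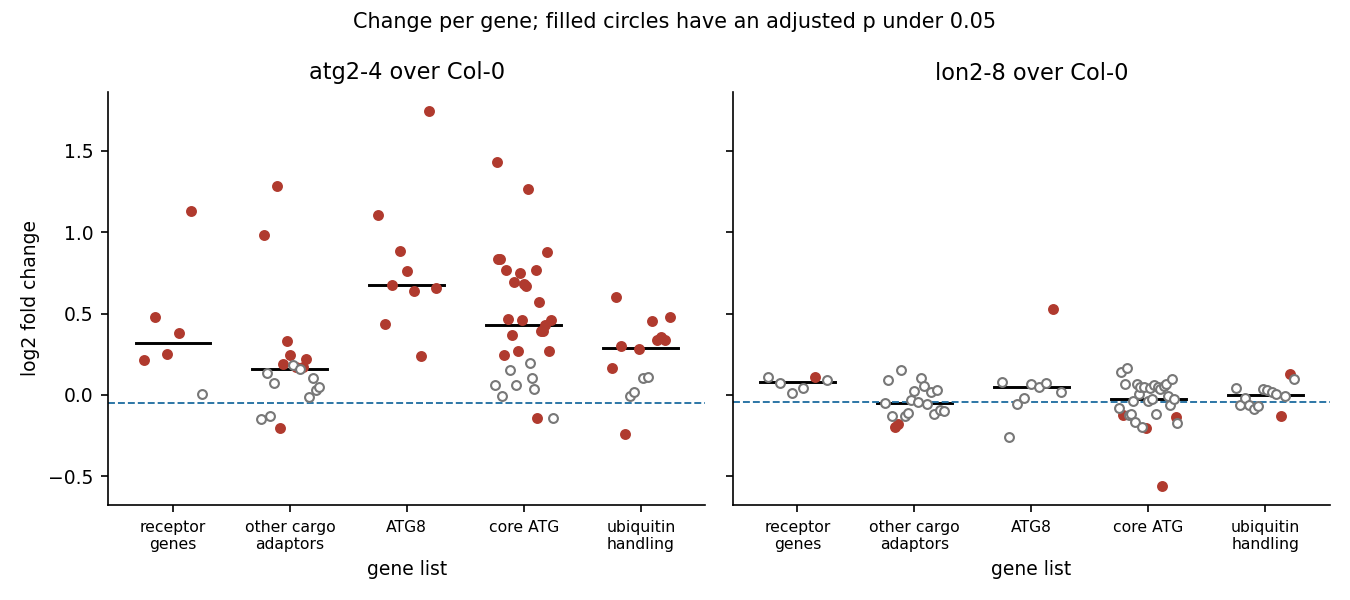
Log2 fold change of each tested gene in 5 lists for atg2-4 over Col-0 and lon2-8 over Col-0, filled where the adjusted p (limma) was under 0.05, with list medians (black) and the median of all genes tested (dashed). In atg2-4 the medians are 0.32 for the receptor genes, 0.68 for ATG8 and 0.43 for the core genes, and in lon2-8 they are 0.08, 0.05 and -0.02.

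Ubiquitin, the tag that NBR1 and the DSK2 proteins bind, is made from polyubiquitin genes that were among those that rose. Of 14 genes that make or handle ubiquitin, 9 were called higher and 1 lower in atg2-4, with a median log2 fold change of 0.29, against 21.3% of all genes called higher and 27.2% lower. In lon2-8 1 was called higher and 1 lower, against 9.06% and 14.1% of all genes. UBQ10 averaged 899 ± 24.0 FPKM in atg2-4 and 657 ± 9.99 FPKM in Col-0 (log2 fold change 0.45, adjusted p = 4.37e-08, limma). UBQ4 (0.48), UBQ3 (0.34) and UBQ11 (0.34) followed. In lon2-8 UBQ3 was higher (0.13, adjusted p = 0.0135, limma) and UBQ11 lower (-0.13, adjusted p = 0.0206, limma). The ubiquitin repeats of these genes are near-identical, so reads can be shared between them and the values of single UBQ genes are uncertain.

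Genes of proteins that the receptors are known to carry followed no common direction. BES1, which DSK2 carries, averaged 85.4 ± 1.76 FPKM in atg2-4 and 91.1 ± 0.61 FPKM in Col-0 and did not pass the test (log2 fold change -0.09, adjusted p = 0.0618, limma). PIP2;7, which TSPO carries, averaged 253 ± 9.85 FPKM in atg2-4 and 253 ± 3.63 FPKM in Col-0 (adjusted p = 0.948, limma). PSBS, a photosystem protein bound by ATI1, averaged 181 ± 11.5 FPKM in atg2-4 and 201 ± 6.67 FPKM in Col-0 (log2 fold change -0.15, adjusted p = 0.0195, limma). ROF1 and HSP90.1, which NBR1 carries after heat stress, moved apart, with log2 fold changes of -0.30 (adjusted p = 5.79e-06) and 0.33 (adjusted p = 0.000231, limma).

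In lon2-8, where 9.06% of all genes tested were called higher and 14.1% lower, all 5 of these genes passed. BES1 was lower at 72.1 ± 4.31 FPKM against 91.1 ± 0.61 FPKM in Col-0 (log2 fold change -0.34, adjusted p = 3.89e-05, limma). ROF1 was lower too (-0.15), and PIP2;7 (0.22), PSBS (0.24) and HSP90.1 (0.22) were higher. Of 10 genes around BES1 turnover, BES1 among them, 3 were called higher and 1 lower in atg2-4, where 21.3% of all genes tested were called higher and 27.2% lower. The ubiquitin ligase genes SINAT4 (0.27) and SINAT3 (0.26) and the kinase gene BIN2 (0.10) rose, and SINAT1 fell (-0.19, adjusted p = 0.0496, limma). In lon2-8, where 9.06% of all genes were called higher and 14.1% lower, 0 were called higher and 2 lower, BES1 and its close relative BZR1 (-0.17, adjusted p = 0.0247, limma).

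Abscisic acid, which induces TSPO, was followed through 9 tested genes of its response. In atg2-4 2 were called higher and 3 lower, where 21.3% of all genes tested were called higher and 27.2% lower. RD29A, a stress protein gene, averaged 7.70 ± 0.16 FPKM in atg2-4 and 13.5 ± 1.26 FPKM in Col-0 (log2 fold change -0.73), and the dehydrin gene LTI30 (-0.51) and the transcription factor gene ABF3 (-0.57) were also lower. LEA4-5, a desiccation protein gene, averaged 4.55 ± 0.31 FPKM in atg2-4 and 2.31 ± 0.26 FPKM in Col-0 (log2 fold change 0.75, adjusted p = 7.11e-05, limma). In lon2-8, where 9.06% of all genes were called higher and 14.1% lower, 0 were called higher and 3 lower, ABF3 (-0.43) and the phosphatase gene ABI1 (-0.22) with the smallest adjusted p.

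Across the 12 libraries NBR1 varied most like ATI2 among the receptors, with a Pearson r of 0.979 on the log2(FPKM + 1) scale, followed by DSK2B (0.940), DSK2A (0.932), ATI1 (0.829) and TSPO (0.335). These r are descriptions over libraries that fall into genotypes of 3, and they carry no test. Of all genes tested, those most like NBR1 were the glutathione transferase gene GSTF2 (0.999), the cytochrome P450 gene CYP82C2 (0.998), PMZ (0.998), the arogenate dehydratase gene ADT4 (0.998) and the alternative oxidase gene AOX1D (0.997). GSTF2 averaged 333 FPKM in atg2-4, 117 FPKM in lon2-8 and 373 FPKM in the double mutant, against 102 FPKM in Col-0, so it shares the order of levels of NBR1. The gene most like ATI2 was AT2G27390 (0.994), that most like DSK2B was CRCK1 (0.986), that most like ATI1 was MEE11 (0.983) and that most like DSK2A was AT4G15270 (0.968). For TSPO no gene came above APO2 (0.879), whose mean lay between 35.2 and 37.9 FPKM in all genotypes.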

How the data were processed

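RNA of 12 libraries was measured, 3 per genotype. The submitters' processing notes name STAR 2.5.1a, and beside it Salmon 0.8.2, bcl2fastq, featureCounts 1.4.6-p5 (Subread), limma and edgeR. Their roles, the build, the use of strand and the counting rules are not stated in them. Values of each gene and library were deposited by the authors as FPKM. For 4 comparisons the authors' deposited tables add a log2 fold change, a false discovery rate and a p-value, whose test is not stated and which entered no test here. Other deposited sheets were not used.

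FPKM were read back to whole fragments, with a tolerance of 0.01, for 99.9% of values. For 8877 of 8891 genes checked, the length behind the deposited FPKM was the gene span of the RefSeq annotation of TAIR10.1 within 1 base, and of 5791 genes with introns 3 matched the exon length. The files therefore use these gene models, and the coordinates are those of TAIR10.1, to which 26093 of 26093 identifiers matched. A span cancels in fold changes but not between genes.

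A gene was tested if 3 libraries or more reached 1 FPKM, which left 20662. A model in limma 3.58.1 (R 4.3.3) gave log2(FPKM + 1) a mean per genotype over all 12 libraries, moderated with a trend. Two-sided p-values were adjusted by Benjamini-Hochberg over all genes tested in each of 7 comparisons, at a threshold of 0.05. The code of the fit was checked on simulated data, with far fewer changed genes than were called here. That check does not bear on the calls themselves. Python 3.11.15, numpy 2.4.6, pandas 2.3.3, Biopython 1.88 and matplotlib 3.10.9 were used for the rest. Comparisons against Col-0 share its libraries. Precision is limited by the 3 libraries per genotype.

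The receptor genes, the other gene lists and the tests were chosen with earlier results of these data known. All 6 receptor genes were named in every comparison, from each list up to 4 genes of smallest adjusted p in atg2-4 and 2 in lon2-8, all 5 carried proteins, and up to 5 genes most alike to each receptor gene. Of the core autophagy list ATG18E, and of the abscisic acid list COR15A, NCED3 and HAI1, did not pass the filter. RPN10 is in both the adaptor and the ubiquitin list. The alternatives were another pseudocount, other filters, centred libraries, no trend, a replicate block, fits of only the genotypes compared, each library left out, and, chosen after seeing the data, exon length in place of gene span, the length of 1 transcript in place of the union of exons for levels between genes, and root markers without PYK10. Protein sequences were not used here.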

Additional observations from a re-analysis of the deposited data

Results flagged for a closer look

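None of the 6 receptor genes had a lon2-8 change that differed with atg2-4 by the interaction test. Among the genes named from the other lists, with PYK10 the only tissue marker checked, 11 did (limma, Benjamini-Hochberg over all genes tested, threshold 0.05). Of all genes tested, 13.2% were called for the interaction. The 11 include LON2 and PYK10, which was added by hand. They come from picked genes, so they are not set against that share. Genes named as most alike to a receptor gene were not checked. Many of the genes checked were named for a small adjusted p in atg2-4 or lon2-8 against Col-0. Both comparisons are part of the interaction, so this choice can enlarge the count and the values. Each value is the log2 change by lon2-8 in atg2-4 seedlings minus that in Col-0 seedlings. ATG8H had -0.78 (adjusted p = 7.35e-05), with changes by lon2-8 of -0.25 in atg2-4 and 0.53 in Col-0. LON2 itself, whose gene lon2-8 mutates, had -0.92, with -2.01 in atg2-4 and -1.09 in Col-0. ATG4A had 0.52, with -0.04 in atg2-4 and -0.56 in Col-0. Among genes of carried proteins and BES1 turnover, BES1 had 0.32, BIN2 had 0.19, PIP2;7 had -0.23 and HSP90.1 had -0.26. Among abscisic acid response genes, ABF3 had 0.45 and LEA4-5 had 0.53. The exocyst gene EXO70B1 had 0.25, and the root marker PYK10 had -0.48. The causes were not tested.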

How the results depend on the processing

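No called change of a receptor gene turned its direction under the alternatives run. The counts of receptor genes called in atg2-4 and in the double mutant against Col-0, in the double mutant and in atg2-4 against lon2-8, and for the interaction stayed within 1.5 times throughout. For lon2-8 against Col-0 the count of 1 became 2 with libraries centred on their medians (ATI1 added, 0.16, adjusted p = 0.0200) and 0 without a trend, and ranged from 0 to 1 with a library left out. For the double mutant against atg2-4 the count of 1 became 0 without a trend, with only the groups compared and with the replicate block (NBR1 adjusted p = 0.0711), and ranged from 0 to 1 with a library left out. Genes called there numbered 1835, against 1061 without double mutant library 3, 1068 without atg2-4 library 3 and 1092 without double mutant library 2. The replicate block changed no other call among the receptor genes. Same-numbered libraries correlated at -0.06 to 0.05 in their deviations and differently numbered ones at -0.05 to 0.06. Of 12 libraries 6 were closest to their own number. Values this small cannot settle whether library numbers mark a shared batch. ATI1 in the double mutant against lon2-8 passed without double mutant library 1 (adjusted p = 0.0420, limma). TSPO, counted at 4 to 28 fragments a library, moved by over 1.5 times with a pseudocount of 0.1, to 0.92 in the double mutant over Col-0 (adjusted p = 0.0909, limma), and did not pass. The ratio of ATI2 to ATI1 depends on the length taken for ATI2, at 1.66 in atg2-4 and 1.38 in Col-0 per length of 1 transcript, against 1.35 and 1.13 per exon length. The causes of these shifts were not tested.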
